A study of Mus musculus with 2 samples.

Results

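Of 25411 cell barcodes, called droplets here, in the library of CD133+ non-traced spinal cord cells, 1984 carried transcripts of endothelial cells and of pericytes together (7.81%, exact 95% interval 7.48 to 8.14). They were chosen by measured values. A droplet was taken if it held a unique molecular identifier (UMI, a tag that marks 1 captured RNA molecule) of at least 4 of the 6 pericyte markers Pdgfrb, Kcnj8, Vtn, Higd1b, Abcc9 and Ndufa4l2. In addition, the 8 endothelial genes Cldn5, Flt1, Pecam1, Ly6c1, Slco1a4, Itm2a, Cdh5 and Ly6a together had to make up at least 0.5% of its UMIs. A UMI of at most 2 of the 6 ependymal markers Ccdc153, Fam183b, Tmem212, Foxj1, Rsph1 and Dynlrb2 was allowed. These droplets are called combined droplets below, and the levels of these 20 genes in them are given as a description, since the rule used them.

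The cells came from spinal cords of mice on a C57BL/6j background, aged 10 to 12 weeks, with Clec9a cre/cre and the Rosa26 LSL-tdTomato reporter on both alleles. Cre is made under the control of Clec9a, the gene of the dendritic cell receptor DNGR-1, and turns on the red protein tdTomato for good in cells with present or past Clec9a expression and in their progeny. Live CD45- CD133+ cells were sorted after myelin depletion into DNGR-1 traced cells, which were red, and non-traced cells, which were not. Each group was 1 library of cells from spinal cords whose number was not given in the sources used here, with no replicates, so that no test between groups was possible and intervals cover counting error only. Both groups carried the same alleles.

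Endothelial cells line blood vessels, and in the central nervous system they seal the vessel wall with tight junctions and form the blood-brain barrier. Mural cells sit on the outer side of this tube. They include pericytes, which are embedded in the capillary basement membrane and depend on platelet-derived growth factor from the endothelium, and smooth muscle cells, which wrap arteries and arterioles. CD133, or prominin 1, the antigen of the sort, is encoded by Prom1.

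The non-traced library held 233318692 UMIs and the traced library 46530507 UMIs in 4825 droplets. The combined droplets were compared with reference classes of the same library, cut with the same genes. Endothelial droplets (n = 19135, 75.3% of the library) had the endothelial share and a UMI of at most 1 pericyte marker, and a further 2055 droplets (8.09%) with 2 or 3 markers were held apart. Mural droplets (n = 226, 0.889%) had at least 4 pericyte markers and an endothelial share under 0.5%. Ependymal droplets (n = 1167, 4.59%) had a UMI of at least 4 ependymal markers and an endothelial share under 0.5%, and 719 droplets (2.83%) had ependymal and endothelial markers together. The remaining 125 droplets were in none of these classes. The libraries shared 42 barcode sequences, 4 of them among the combined droplets.

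Sequences just upstream of the genes that define these droplets are shown first, since the 2 sets of genes are normally active in different cells. RefSeq promoter entries (build GRCm38.p6, the assembly of mm10 on which the counts were made) were found for 3 of the 6 pericyte markers (Kcnj8, Vtn and Abcc9) and 5 of the 8 endothelial genes (Cldn5, Flt1, Ly6c1, Slco1a4 and Itm2a). Pdgfrb, Higd1b, Ndufa4l2, Pecam1, Cdh5 and Ly6a had no entry. Kcnj8 and Abcc9, whose products form the pore and the regulatory subunit of the vascular ATP-sensitive potassium channel, lie side by side on chromosome 6, at 142564837 to 142571614 and 142587862 to 142702315, both on the minus strand. The RefSeq start of Abcc9 lies inside this annotated span. The 250 bases before the start of 4 of the genes, written 5′ to 3′ on the strand of the gene, are given below, with GGAAG on this strand or its complement CTTCC in capitals. GGAAG holds GGAA, the core bound by ETS factors, a family with members that act in endothelial cells. The shorter GGAA was not searched.
Kcnj8, chr6:142571615-142571864, minus strand: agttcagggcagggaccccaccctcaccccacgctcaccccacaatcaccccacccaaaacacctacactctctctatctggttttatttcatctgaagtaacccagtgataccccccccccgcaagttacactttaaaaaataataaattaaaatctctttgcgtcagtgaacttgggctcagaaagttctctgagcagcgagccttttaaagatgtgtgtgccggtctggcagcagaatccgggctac
Abcc9, chr6:142702275-142702524, minus strand: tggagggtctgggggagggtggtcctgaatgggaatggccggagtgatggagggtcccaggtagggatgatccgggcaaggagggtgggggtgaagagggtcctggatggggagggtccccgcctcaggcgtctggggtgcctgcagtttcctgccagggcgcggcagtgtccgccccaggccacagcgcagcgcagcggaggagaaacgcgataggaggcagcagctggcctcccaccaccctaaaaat
Cldn5, chr16:18776597-18776846, plus strand: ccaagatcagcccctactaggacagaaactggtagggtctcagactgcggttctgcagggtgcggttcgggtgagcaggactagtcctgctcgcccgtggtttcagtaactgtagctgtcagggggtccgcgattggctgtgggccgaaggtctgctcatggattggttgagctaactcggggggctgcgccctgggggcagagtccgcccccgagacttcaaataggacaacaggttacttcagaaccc
Flt1, chr5:147726012-147726261, minus strand: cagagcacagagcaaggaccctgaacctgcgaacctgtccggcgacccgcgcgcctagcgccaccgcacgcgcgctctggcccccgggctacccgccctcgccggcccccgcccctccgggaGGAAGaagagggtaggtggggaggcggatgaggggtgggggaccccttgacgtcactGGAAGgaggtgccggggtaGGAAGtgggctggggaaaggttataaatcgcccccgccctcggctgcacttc
Flt1 had 3 matches, and Kcnj8, Abcc9 and Cldn5 had 0 of this longer string. Over both sets, 4 of 5 endothelial genes (Flt1, Itm2a, Ly6c1 and Slco1a4) and 1 of 3 pericyte markers (Vtn) held the motif on either strand. Of all 32851 promoter entries, 64.1% did, so the letters are common, and a match is no evidence of a bound factor.

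With all UMIs, the number of pericyte markers per droplet had a peak at 0 and another at 6, the most the rule can count, and at equal depth it had the first alone. Among the 23174 droplets with the endothelial share and at most 2 ependymal markers, 14097 (60.8%) had no UMI of any of the 6 markers and 5038 (21.7%) had 1. The number of droplets fell to 1385 with 2 markers, 670 with 3, 497 with 4 and 311 with 5, and rose again to 1176 (5.07%) with all 6. Thinned to 1000 UMIs per droplet, the shares fell at each step, from 86.2% with no marker and 7.50% with 1 to 1.26% with 4, 0.634% with 5 and 0.224% with 6. At that depth, 254 of the 1984 combined droplets showed no marker and 52 showed all 6, so the number of markers seen depends on depth.

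**Figure D1:**
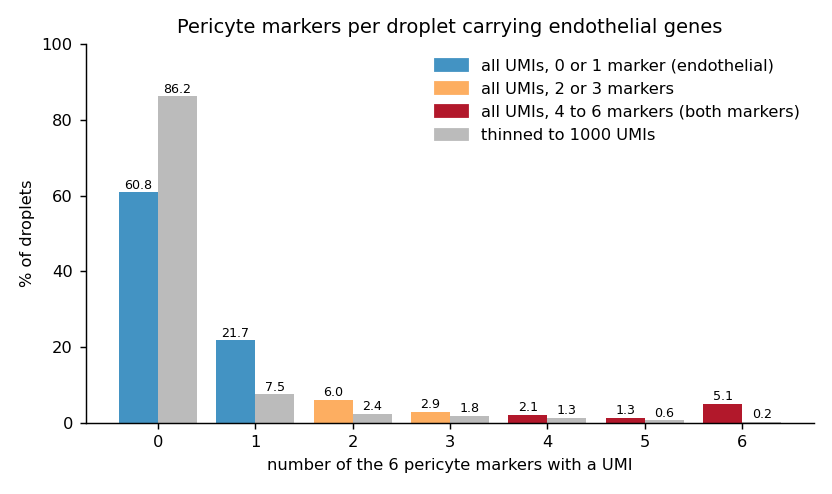
Droplets with the endothelial gene share and at most 2 ependymal markers (n = 23174) by how many of the 6 pericyte markers had a UMI (x axis), as a percent of these droplets (y axis), with all UMIs (coloured bars) and thinned to 1000 UMIs per droplet (grey bars). With all UMIs, 60.8% had none, and more droplets had 6 markers (5.07%) than 4 (2.14%) or 5 (1.34%), whereas at 1000 UMIs the share fell to 0.224% with 6.

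Depth is part of the rule, since a droplet with more UMIs shows more markers. Combined droplets held a median of 12215.5 UMIs (interval 11982 to 12564, lowest 1379, highest 53195) and 4032.5 detected genes. Endothelial droplets had a median of 6741 UMIs and 2679 genes, and mural droplets 4509 UMIs and 2098 genes. The combined median was 1.81 times that of endothelial droplets and 1.09 times the sum of the endothelial and mural medians. Over 5 equal bins of depth, the share of droplets with the endothelial share that met the rule went from 2.57% in the shallowest to 20.3% in the deepest. Droplets with ependymal and endothelial markers were deeper still (median 14063). Mitochondrial genes made up 3.21% of the UMIs of the combined and 3.38% of the endothelial droplets at the median.

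At the edge of the rule, the 497 droplets with exactly 4 pericyte markers had a median of 0.104% of UMIs from these markers and the 670 just outside, with 3, had 0.0536%. Those with all 6 had 0.857%. On the endothelial side, 32 combined droplets had a share of 0.5 to 0.75% and 40 droplets with 4 or more pericyte markers lay just outside at 0.25 to 0.5%. The limit on ependymal markers cut a gap: 10 combined droplets had a UMI of 2 of them, 0 further droplets had 3, and 77 had more.

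The pericyte markers that defined the droplets reached a median of 37.4% of their level in mural droplets. Vtn, which encodes vitronectin, an adhesion protein that pericytes secrete in the nervous system, ranged over single combined droplets from 0 to 263 UMIs with a median of 47. Its summed level was 3681 counts per 1000000 UMIs (CPM, exact Poisson interval 3658 to 3704), against 24.1 CPM (23.3 to 24.8) in endothelial and 10245 CPM (10061 to 10432) in mural droplets. Kcnj8, the channel pore, had 0 to 33 UMIs per droplet (median 2) and 314 CPM, between 1.33 CPM in endothelial and 707 CPM in mural droplets. Its partner Abcc9, the sulphonylurea receptor, had 0 to 33 UMIs (median 3) and 356 CPM, against 2.28 and 669 CPM. All 3 genes therefore lay well above the endothelial and below the mural level.

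Pdgfrb, the receptor through which pericytes are recruited, had 342 CPM, against 1.33 CPM in endothelial and 878 CPM in mural droplets. Higd1b, a mitochondrial protein gene of the hypoxia-induced family, had 458, 3.59 and 1381 CPM in the same order. Ndufa4l2, a mitochondrial complex subunit that is induced by low oxygen, had 553, 4.62 and 1626 CPM. The 6 genes spanned 33.2% (Higd1b) to 53.2% (Abcc9) of the mural level. Against the 142 mural droplets low in contractile genes (defined below) the range was 20.5% to 27.6%.

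Shares of droplets with a UMI are given at equal depth, although the rule fixes their direction and they bear on no source of the UMIs. At 1000 UMIs per droplet, Kcnj8 had a UMI in 496 of 1984 combined droplets (interval 23.1 to 27.0%), 0.136% of endothelial droplets and 0.343% of ependymal droplets, which should lack it. For Vtn the shares were 75.5%, 2.52% and 3.86%. Without thinning, the Vtn shares were 99.4%, 16.1% and 18.0%.

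The endothelial genes kept most of their level. Cldn5, the main tight junction claudin of the blood-brain barrier, had 0 to 311 UMIs per combined droplet (median 66) and 5696 CPM (5668 to 5725), against 7723 CPM in endothelial and 282 CPM in mural droplets. Flt1, a receptor for vascular endothelial growth factor, had 0 to 259 UMIs (median 37) and 3423 CPM, which was 87.8% of its endothelial level. Ly6a, a surface antigen of endothelial cells, was lowest at 72.3%. Pecam1 and Cdh5, adhesion molecules of the endothelial cell border, had 482 and 504 CPM in combined and 598 and 602 CPM in endothelial droplets. Slco1a4, an anion transporter of the barrier, had 1551 CPM against 1982 CPM. The median over the 8 genes was 78.3% of the endothelial level.

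**Figure D2:**
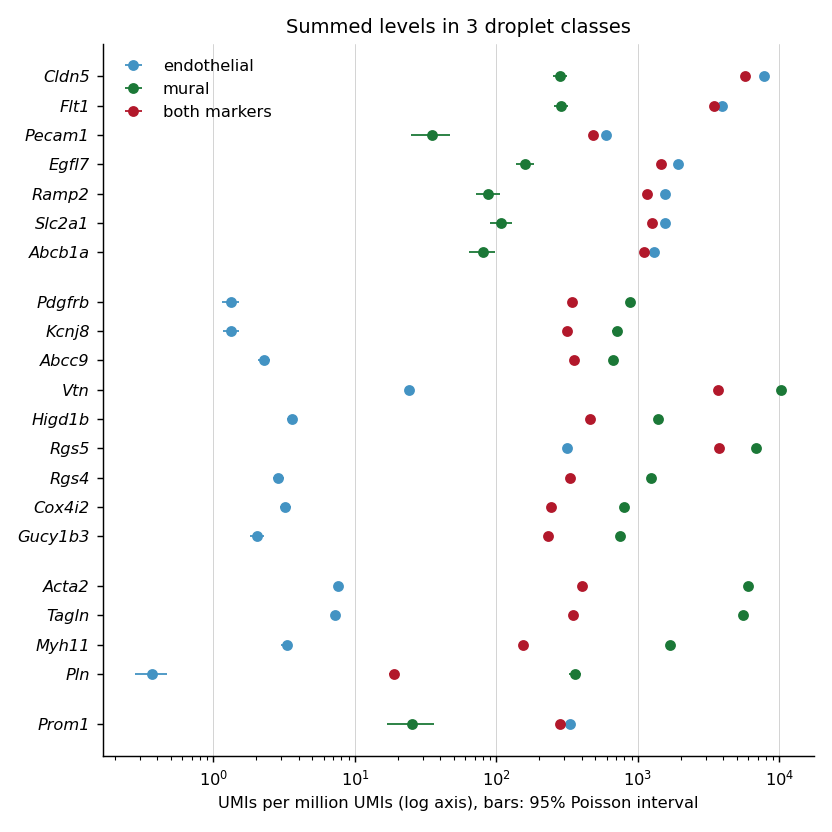
Summed level of single genes in CPM (x axis, log scale) in combined droplets (red, both markers, n = 1984), endothelial droplets (blue, n = 19135) and mural droplets (green, n = 226), with exact 95% Poisson intervals. Red points lie close to blue for endothelial genes and Prom1, between blue and green for pericyte genes, and far below green for the contractile genes Acta2, Tagln, Myh11 and Pln.

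Genes that the rule did not use were divided in the same way. Lists of 30 endothelial and 30 mural genes were summed per droplet and expressed as a percent of the pooled level in endothelial and mural droplets, called endothelial and mural content. The median endothelial content of combined droplets was 80.6% (79.4 to 81.5), against 99.5% in endothelial and 9.13% in mural droplets. Their median mural content was 41.3% (39.7 to 42.9), against 0.904% in endothelial and 115% in mural droplets. The sum of both contents had a median of 122%. The mural content was 33.3% without the 3 mural genes with the most UMIs and 33.0% with contractile mural droplets left out of the reference.

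The 2 contents ran in opposite directions across droplets. Pearson's r was -0.66 and Spearman's rho -0.67 over the 1984 droplets, which share 1 library, and both contents are shares of the same UMI total. In 389 droplets (19.6%) the mural content was higher than the endothelial, in 603 (30.4%) both were at least 50%, and in 149 (7.51%) the mural content was under 10%. The 387 droplets with a mural content under 20% had a median endothelial content of 97.2%, and the 166 at 80% or more had 52.4%. Median UMIs were 12882 in the first of these sets and 9448.5 in the second. Droplets with 2 or 3 pericyte markers had an endothelial content of 98.8%, near the endothelial class. Their mural content of 7.24% lay above the 0.904% of endothelial droplets.

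**Figure D3:**
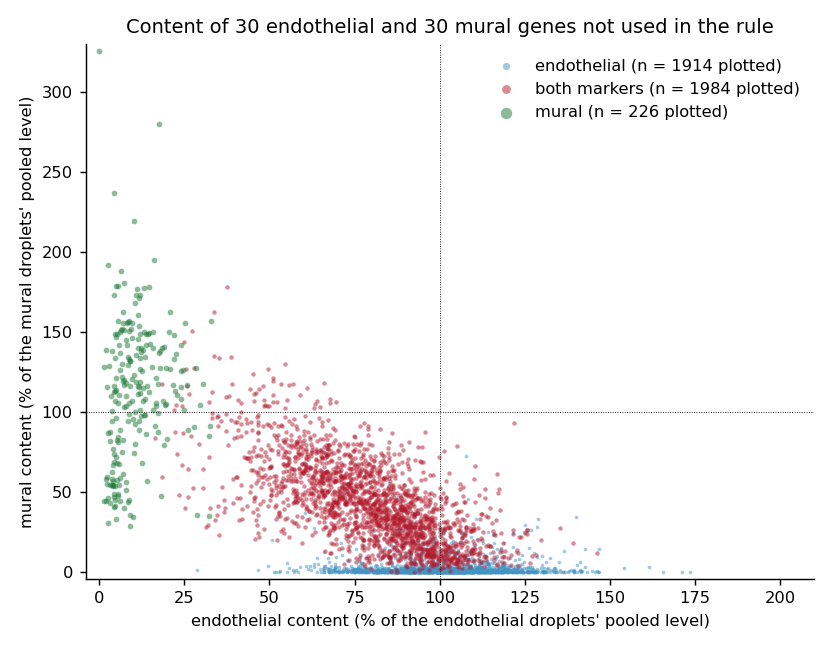
Endothelial content (x axis) and mural content (y axis) of single droplets, each as a percent of the pooled level in its reference class, over genes the rule did not use. Combined droplets (red, n = 1984) fill a band from the endothelial droplets at the lower right (blue, 1914 plotted, 1 of every 10) towards the mural droplets at the upper left (green, n = 226), with r = -0.66.

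Of the 30 mural genes not in the rule, 28 reached 10 CPM in combined or mural droplets and 27 in combined or endothelial droplets. All 27 were at least 2-fold higher in combined than in endothelial droplets, with a median log2 difference of 5.36, where over all 8804 genes at this level 480 (5.45%) were higher and 10 (0.114%) lower, with a median of 0.01. Log2 differences are on the log2(CPM + 1) scale. The 5.45% and 0.114% come from droplets chosen for pericyte genes and are background only. Genes near 1 CPM in endothelial droplets passed the limit of 10 CPM only through combined droplets. Their direction was thus fixed by the limit, and endothelial droplets were themselves cut low in pericyte markers. The count of 27 is therefore a description, as are the later list counts against endothelial droplets. Rgs5, a regulator of G protein signalling and a pericyte marker, had 0 to 296 UMIs per combined droplet (median 42) and 3744 CPM, against 315 CPM in endothelial and 6832 CPM in mural droplets. Cspg4, the NG2 proteoglycan, had 145 CPM against 0.793 CPM in endothelial droplets, and Atp13a5, a transport ATPase gene of brain pericytes, 203 against 1.34 CPM. P2ry14, a receptor for UDP-glucose, had 183 against 1.28 CPM. Notch3, the Notch receptor of mural cells, had 193 against 1.98 CPM, and Cox4i2, a cytochrome oxidase isoform, 242 against 3.22 CPM.

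Against mural droplets the same lists lay the other way. Of the 28 mural genes tested, 26 were at least 2-fold lower and 0 higher, with a median of -1.67, and their median level was 31.2% of the mural level. Of the 30 endothelial genes, 29 were at least 2-fold higher than in mural droplets and 0 were 2-fold different from endothelial droplets, with a median of 81.7% of the endothelial level, from 74.0% (Clec14a) to 94.0% (Kdr). Over all 9477 genes at this level, 1258 (13.3%) were higher and 1122 (11.8%) lower than in mural droplets. Mural droplets were themselves cut low in the endothelial genes of the rule, so a higher level of endothelial genes follows from the cut. These counts are a description, as are the later list counts against mural droplets. Egfl7, an endothelial secreted factor, had 1447 CPM in combined, 1915 in endothelial and 159 in mural droplets. Slc2a1, the barrier glucose transporter, had 1246, 1556 and 108 CPM. Ramp2, part of the adrenomedullin receptor, had 1165, 1549 and 87.7 CPM. The largest differences from mural droplets were for Hmcn1 (5.33), Ifit1 (5.04) and Rab11fip1 (4.78), which rest on 9, 5 and 2 UMIs in the mural sum.

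Few genes lay 1.5-fold or more outside the range of the 2 reference classes. Of 4323 genes with at least 50 CPM in a class, 2 (0.0463%) were at least 1.5-fold above the higher and 7 (0.162%) at least 1.5-fold below the lower of the endothelial and mural levels. The 2 above were Gm26802, with 106 CPM against 44.4 and 53.8 CPM, and Cyr61, a secreted matrix protein gene that is quickly induced in stimulated cells, with 275 against 171 and 159 CPM. Next came Dusp6, a phosphatase that acts on the kinase ERK, at 0.37 log2 units above the higher class. The 7 below were the haemoglobin genes Hbb-bs, Hba-a2, Hbb-bt and Hba-a1, the ribosomal RNA gene Rn18s-rs5, S100a6 and Apod. The 5 erythrocyte genes summed to 710.1 CPM in combined, 1542 CPM in endothelial and 8829 CPM in mural droplets. The mural level was uneven, with 17338 CPM in mural droplets low in contractile genes and 15.9 CPM in those rich in them (defined below). The combined level was thus above that of contractile mural droplets. Hbb-bs, a beta globin chain, had 388 CPM in combined, 858 CPM in endothelial and 4705 CPM in mural droplets. S100a6, a calcium-binding protein gene, had 24.1, 41.8 and 59.9 CPM. Reads of the globin genes and of Rn18s-rs5 can be shared with near-identical copies, so these values are uncertain.

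The ligands and receptors by which endothelium and mural cells signal to each other were both present in the summed counts of combined droplets. Pdgfb, the ligand that endothelial cells offer to pericytes, had 207 CPM (202 to 213) in combined, 263 CPM in endothelial and 29.5 CPM in mural droplets, beside Pdgfrb with 342, 1.33 and 878 CPM. Of the 6 genes of the platelet-derived growth factor list, 4 were tested. Pdgfrb alone was 2-fold higher than in endothelial droplets (5.45% over all genes) and 0 were lower (0.114%). Pdgfrb is a gene of the rule, which set its direction. Tek and Tie1, the endothelial receptors of the angiopoietin system, had 277 and 209 CPM, against 329 and 258 CPM in endothelial droplets. Angpt1, the ligand that mural cells make, had 7.79 CPM, against 2.03 CPM in endothelial and 59.1 CPM in mural droplets. None of the 9 genes tested for transforming growth factor beta signalling differed 2-fold from endothelial droplets (median -0.15). Of 11 Notch genes tested, 3 (Notch3, Heyl and Nrarp) were higher than in endothelial droplets (5.45% over all genes) and 0 lower (0.114%). Hes1, a common Notch target, was level at 894, 870.0 and 881 CPM. Heyl and Nrarp were named after their values were seen.

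Genes for vessel tone followed the same division. Of 8 tested, 4 were 2-fold higher than in endothelial droplets (5.45% over all genes) and 0 lower (0.114%). Gucy1a3 and Gucy1b3, the subunits of the nitric oxide receptor, had 145 and 232 CPM, against 1.11 and 2.04 CPM in endothelial and 529 and 749 CPM in mural droplets. The other 2, Ednra, an endothelin receptor, and Pde5a, which breaks down cyclic GMP, had 57.4 and 103 CPM, against 0.489 and 18.0 CPM in endothelial droplets. Edn1 and Nos3, which make endothelin and nitric oxide in endothelium, had 191 and 147 CPM, against 262 and 181 CPM in endothelial and 32.1 and 17.4 CPM in mural droplets. These are sums over droplets, and their joint presence in single droplets was not counted.

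Of 13 basement membrane genes, 4 were at least 2-fold higher than in endothelial droplets (5.45% over all genes) and 0 lower (0.114%). These were Lama2 (53.5 against 0.712 CPM), Lamb1 (26.0 against 0.533 CPM), Lamc1 (137 against 48.3 CPM) and Nid1 (133 against 27.6 CPM), which encode laminin chains and a linker protein and were named after their values were seen. Col4a1 and Col4a2, the main collagen IV chains, had 499 and 305 CPM, against 372 and 256 CPM in endothelial and 584 and 314 CPM in mural droplets. Sparc, a matrix protein, had 2358 CPM, between 2461 CPM in endothelial and 1392 CPM in mural droplets. Of 11 tested genes for cell contacts, 3 were higher than in endothelial droplets (5.45% over all genes) and 0 lower (0.114%). Among the 3, Cdh2, the N-cadherin of the contact between pericyte and endothelium, had 62.8 against 26.3 CPM. It was named after its value was seen, and the others are not named here.

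Markers of other cell types were low, apart from some fibroblast genes. All 6 ependymal markers, which the rule limits, had 0.701 to 1.59 CPM in combined and 509 to 1588 CPM in ependymal droplets. Of 10 other ependymal genes none reached 10 CPM in combined or endothelial droplets, and their summed level was 10.6 CPM, against 4216 CPM in ependymal droplets. Of 12 genes of microglia and macrophages, 3 (Cx3cr1, Tmem119 and C1qa) were at 0 UMIs of 27089438, where 3 counts would be 0.111 CPM, and 11 were under 1 CPM. Ptprc, the gene of CD45, had 2 UMIs in all. Of 11 oligodendrocyte genes, 8 were under 1 CPM, and the list summed to 24.4 CPM, against 28.7 CPM in endothelial droplets. The astrocyte list summed to 66.8 CPM, of which Gja1 made 45.4 CPM, against 95.5 CPM in endothelial droplets. The neuron list summed to 154 CPM, of which Stmn2 made 146 CPM, against 209 CPM for Stmn2 in endothelial droplets. Of 12 fibroblast genes, 5 of 7 tested were higher than in endothelial droplets (5.45% over all genes), with a median log2 difference of 3.01. Among them were Col1a2 (45.3 against 1.73 CPM) and Slc6a13 (25.7 against 0.508 CPM). The list summed to 210 CPM, against 141 CPM in endothelial and 1643 CPM in mural droplets. Pdgfra and Lum had 0.0738 CPM each. Of 8 cell cycle genes none reached 10 CPM in combined or endothelial droplets.

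Early response genes, which dissociation can induce, were high in each vascular class. The 14 genes summed to 25174 CPM in combined, 24111 in endothelial and 20646 in mural droplets, and none was 2-fold higher or lower than in endothelial droplets (median -0.03). Fos, a transcription factor of this response, had 4535 CPM against 3320.0 CPM in endothelial and 4919 CPM in mural droplets. Jun, its partner, had 4649, 4438 and 3172 CPM.

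Prom1, the gene of the sorted antigen, had 282 CPM (276 to 289) in combined droplets, close to 332 CPM in endothelial droplets and far from 25.2 CPM in mural droplets. At 1000 UMIs, 24.7% of combined, 26.5% of endothelial, 3.54% of mural and 2.49% of ependymal droplets had a UMI of it. Transcripts of the reporter row WPRE-tdTomato were at 73.2 CPM in combined, 64.6 CPM in endothelial and 76.4 CPM in mural droplets of this library, which was sorted as non-traced. Clec9a had 2 UMIs in the combined droplets. The methods of the study describe mice of this genotype as deficient in Clec9a, so a low count cannot show whether the locus was active.

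In the traced library, the same rule found 8 of 4825 droplets (0.166%, 0.0716 to 0.326), beside 47 endothelial, 0 mural and 4730 ependymal droplets. Beside the 0 mural droplets, 3 droplets would be a share of 0.0622%. The 8 droplets had 2863 to 28574 UMIs and 4 to 6 pericyte markers. Of WPRE-tdTomato they held 26 UMIs in all (223 CPM, 146 to 327), with 0 to 12 per droplet, against 364 CPM in the endothelial and 318 CPM in the ependymal droplets of that library. Vtn was at 3187 CPM and Cldn5 at 3917 CPM in them.

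Whether a droplet held RNA of a male and a female animal was read from Xist, the long RNA of the silenced X chromosome of female cells, and 4 Y-linked genes (Ddx3y, Eif2s3y, Kdm5d and Uty). At 1000 UMIs per droplet, 12 of 1984 combined droplets had a UMI of both kinds (0.605%, 0.313 to 1.05), against 49 of 19135 endothelial droplets (0.256%, 0.190 to 0.338) and 8 of 719 droplets with ependymal and endothelial markers (1.11%, 0.482 to 2.18). Of the mural droplets 0 of 226 had both, where 3 droplets would be 1.33%. At 4000 UMIs, with 38 shallower droplets left out, the combined share was 4.21% (3.37 to 5.20). The endothelial share was 2.28% (425 of 18655 droplets), with 480 left out, and that with ependymal and endothelial markers 8.60% (6.64 to 10.9), with 10 left out. Droplets with 2 or 3 pericyte markers had 4.55% (3.69 to 5.55) and ependymal droplets 0.921% (0.442 to 1.69). The combined share lay above that of endothelial droplets and below that of droplets with ependymal and endothelial markers, with intervals apart at 4000 UMIs. Without thinning the shares were 16.6%, 6.99% and 34.4%.

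These shares can be set beside the product of the share with Xist and the share with a Y-linked UMI. In combined droplets at 4000 UMIs, 40.6% had Xist and 27.3% a Y-linked UMI, with a product of 11.1%, so that the share with both was 0.380 times the product. The ratio was 0.397 in droplets with 2 or 3 pericyte markers, 0.217 in endothelial, 0.101 in ependymal and 0.652 in ependymal and endothelial droplets. In mural droplets it was 0.217, which rests on 4 of 140 droplets, with 86 left out. Free RNA also gives droplets with both kinds, and droplets with cells of 1 sex do not show up by this measure.

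**Figure D4:**
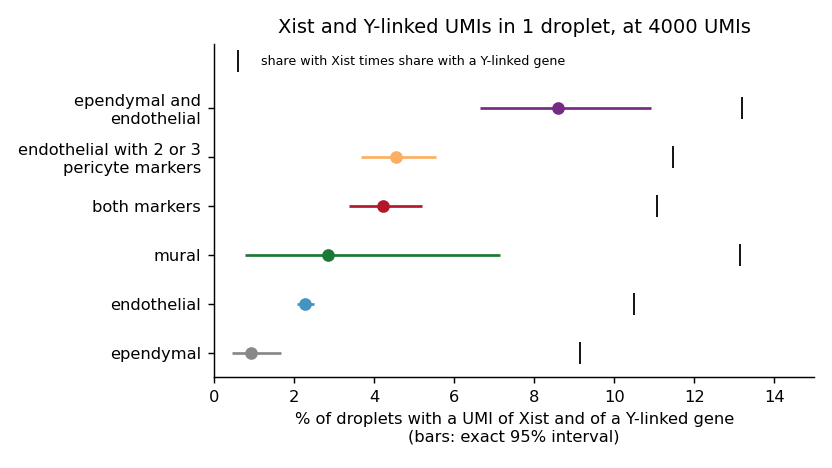
Share of droplets with a UMI of Xist and of a Y-linked gene after thinning to 4000 UMIs (x axis, percent, points with exact 95% intervals) in 6 droplet classes (y axis), with the product of the 2 single shares as a black tick. Combined droplets (both markers, 4.21%) lie above endothelial droplets (2.28%) and below droplets with ependymal and endothelial markers (8.60%).

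Scrublet, which scores droplets against simulated pairs, called 396 of the 1984 combined droplets doublets (20.0%, 18.2 to 21.8) with an expected share of 20.3%. The calls depend on that setting. With an expected share of 5% it called 0 of 25411 droplets in the library, so that it gave no division there, and with another random seed it called 410 combined droplets, 381 of them among the 396. With the first setting it called 5.84% of endothelial, 0 of 226 mural, 13.4% of the droplets with 2 or 3 pericyte markers and 50.8% of those with ependymal and endothelial markers. Called combined droplets had a median of 18186 UMIs and the others 11313 UMIs. Calls were made in 31.8% of the combined droplets with a mural content under 20%, in 38.7% of those at 20 to 40%, in 9.71% at 40 to 60% and in 0% above. Xist and a Y-linked gene were both seen at 4000 UMIs in 7.58% (5.17 to 10.6) of the called and 3.35% (2.52 to 4.38) of the other combined droplets. The part of droplets with more than 1 cell in the results was not tested.

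Contractile genes, which mark smooth muscle, were low in most combined droplets. Of the 16 contractile genes, 15 were in the table, and 15 were at least 2-fold lower than in mural droplets (11.8% over all genes), at a median of 9.12% of the mural level, beside 31.2% for the mural genes not in the rule. The mural reference itself held 84 droplets rich in contractile genes among 226. Without such droplets on either side, the contractile genes summed to 2584 CPM in combined and 6604 CPM in mural droplets. Acta2, smooth muscle actin, had a UMI in 299 of the 1984 combined droplets (15.1%), with 399 CPM against 7.61 CPM in endothelial and 5971 CPM in mural droplets. Tagln, which encodes an actin-binding protein of smooth muscle, had 347, 7.21 and 5518 CPM, and Cald1, caldesmon, 1163, 98.9 and 3278 CPM. Of 13 contractile genes tested, 11 were 2-fold higher than in endothelial droplets, where 5.45% of all genes were.

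A small set of combined droplets was rich in contractile genes. Acta2, Tagln and Myh11 together reached 0.5% of UMIs in 102 combined droplets (5.14%, 4.21 to 6.21) and in 84 of 226 mural droplets (37.2%), a limit chosen after the values were seen. Near this limit, 87 combined droplets lay between 0.25% and 1%. In the 102 droplets, Kcnj8 and Abcc9 were at 22.2 and 36.1 CPM, against 332 and 375 CPM in the other 1882. Vtn had 1121 against 3839 CPM, whereas Rgs5 had 3748 against 3744 CPM and Higd1b 441 against 460 CPM. Hbb-bs had 6.33 against 412 CPM. In mural droplets, Kcnj8 had 42.4 CPM in the 84 contractile and 1348 CPM in the other 142, and Rgs5, unlike in combined droplets, also differed, with 5101 and 8503 CPM.

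The endothelial RNA in these 102 droplets had a different makeup from that in the rest. Along a vessel tree, endothelial cells of arteries, capillaries and veins express different genes, and smooth muscle is a feature of the arterial side. UMIs of each zone list were divided by those of the 30 endothelial genes. The divisor is thus endothelial, but zone UMIs from mural RNA still count. Genes with a higher level in the pooled mural than in endothelial droplets were left out. Contractile mural droplets were not screened on their own. The 10 arterial genes kept had 123 UMIs per 1000 endothelial UMIs (118 to 128) in the 102 contractile droplets and 35.7 (35.2 to 36.3) in the other combined droplets, against 41.6 (41.4 to 41.8) in endothelial droplets. Per droplet, the median was 81.7 (55.8 to 130) in the contractile, 16.5 (14.8 to 17.5) in the other combined and 13.8 in endothelial droplets. The 10 capillary genes went the other way, with 310.4 (302 to 319) against 444 (442 to 445) and 406. The 10 venous genes kept had 88.9 (84.6 to 93.3) against 108 (107 to 109) and 114.

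Of the 10 arterial genes, 9 had intervals above those of the other combined droplets, and Unc5b did not (5.21, 4.22 to 6.37, against 4.44, 4.24 to 4.64). These single genes were named after their values were seen. Gkn3, a secreted protein gene of arterial endothelium, had 39.5 UMIs per 1000 endothelial UMIs (36.7 to 42.5) in contractile and 7.15 in other combined droplets. Its level of 460 CPM was above the 215 CPM of endothelial, the 35.4 CPM of contractile mural and the 126 CPM of other combined droplets. Bmx, a kinase of arterial endothelium, had 11.3 against 2.48, and Sema3g, a semaphorin, 14.3 against 4.06. Of capillary genes, Mfsd2a, the lipid transporter of the barrier, had 7.93 (6.69 to 9.32) against 14.8 (14.4 to 15.1). Among venous genes, Slc38a5, an amino acid transporter, had 5.65 against 10.6, but Vcam1, an adhesion molecule, had 11.8 against 3.11 and Vwf, von Willebrand factor, 9.56 against 4.53.

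The same pattern appeared in counts of droplets. At 4000 UMIs, Gkn3 had a UMI in 47 of 102 contractile combined droplets (46.1%, 36.2 to 56.2), 12.6% of the other combined droplets, 15.8% of endothelial and 1.29% of ependymal droplets. Mfsd2a had a UMI in 28.4% (19.9 to 38.2), 57.2%, 58.7% and 3.31% in the same order. The contractile droplets had a median of 14415 UMIs and an endothelial content of 49.8%, against 12166 UMIs and 81.6% in the rest, and Scrublet called 13.7% and 20.3% of them.

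**Figure D5:**
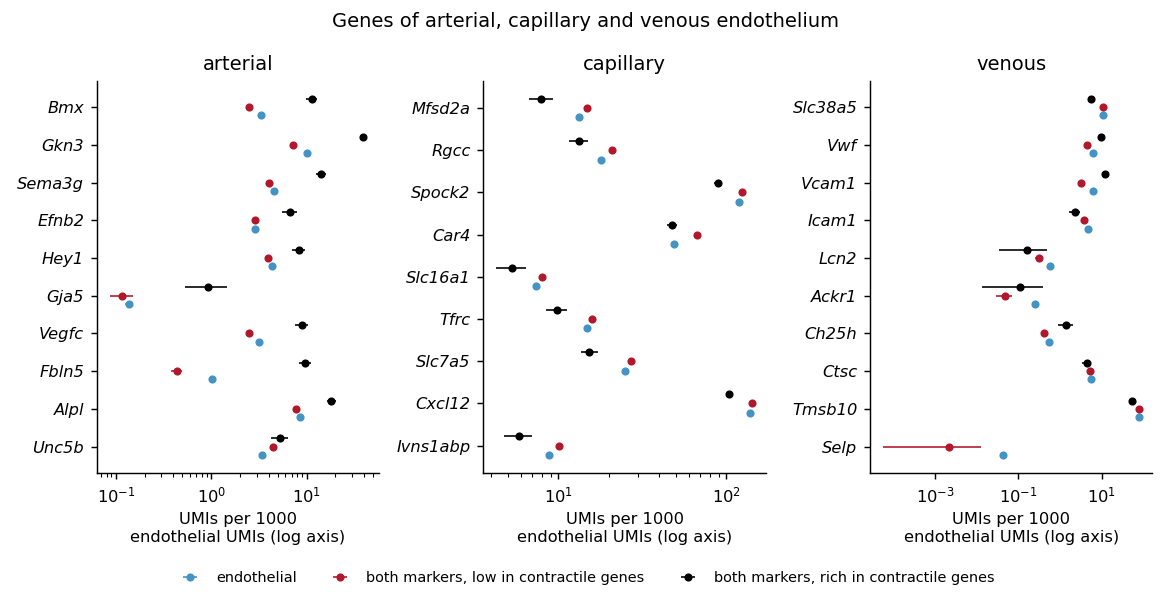
UMIs of arterial, capillary and venous endothelial genes (panels, genes on the y axis) per 1000 UMIs of 30 endothelial genes (x axis, log scale) in endothelial droplets (blue), combined droplets low in contractile genes (red, n = 1882) and combined droplets rich in them (black, n = 102), with Poisson intervals. Black points lie to the right of red for all 10 arterial genes, with overlapping intervals for Unc5b, and to the left for the 9 capillary genes shown of 10, and Selp, with 0 UMIs in the contractile droplets, has no black point.

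Over all combined droplets the zones stayed near those of endothelial droplets, apart from genes that mural cells also express. With all 12 arterial genes the level was 89.0 against 55.0 in endothelial droplets, of which Mgp, a matrix protein gene, made 44.9 against 9.88. Without Mgp and Jag1, both higher in mural droplets, it was 39.1 (38.6 to 39.7) against 41.6, so the direction of the sums turned. The median per droplet stayed above, at 16.5 (14.8 to 17.5) in the 1882 droplets low in contractile genes against 13.8 (13.4 to 14.3). Capillary genes had 438 against 406, with Car4, a carbonic anhydrase gene, at 66.4 against 48.6. Venous genes had 107 against 114 without Nr2f2 and Il1r1, and 119 against 118 with them. Without these 2 genes, the median per droplet was 91.8 (87.8 to 96.5) in the 1882 droplets against 75.5 (73.8 to 77.6), the other way. Of the 10 venous genes with at least 10 CPM in combined or endothelial droplets, 2 were more than 2-fold below their endothelial level. Over all genes, 0.114% were. The 2 were Vcam1 with 59.8 against 134 CPM and Lcn2 with 5.20 against 12.2 CPM.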

How the data were processed

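The authors deposited UMI counts per gene and cell barcode, 1 table per library, made from Chromium 3′ libraries with Cell Ranger 3.0.2, which aligned reads with STAR 2.5.1b to mm10 with reporter sequences added, and filtered by barcode. R 3.6.0 and Seurat 3 were named for later steps and their output was not used here. The counts per gene were used as deposited. A step against doublets is not given in the sources used here, and no droplet was removed as a doublet.

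Droplet classes, contents and sums were computed in Python 3.11.15 with numpy 2.4.6, scipy 1.17.1 and pandas 2.3.3. Levels are sums over the droplets of a class per 1000000 UMIs (CPM), with a pseudocount of 1 on the log2 scale. Genes were compared 2-fold from 10 CPM and 1.5-fold against both classes from 50 CPM. Shares have exact Clopper-Pearson, sums exact Poisson and medians order-statistic intervals at 95%. These intervals cover counting error only. With 1 library per group, no test was made. Thinning drew 1000 or 4000 UMIs per droplet without replacement. Scrublet (in scanpy 1.11.5, with an expected share of 20.3%) called 2170 of 25411 non-traced droplets (8.54%). The steps were tested on simulated data. Of 28 gene lists, 2 genes were entered under older symbols and 1 (Actg2) was not in the table. Coordinates of genes are from GENCODE M21 (GRCm38).

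Named were the genes of the rule, the 4 genes with the highest CPM of each other list, the 10 genes farthest outside both classes and the 10 most different from each class, and the sort and reporter genes. Others are said to have been named after their values were seen, which holds also for C1qa, Tmem119, Cx3cr1, Lum, Pdgfra, Myh11, Clec14a, Kdr and Il1r1. Single values of 2 listed genes are not reported here. The members and lists were chosen with earlier results of these data known. Alternatives tried were other limits of the rule, a mitochondrial limit of 10% of UMIs, Scrublet calls left out, other pseudocounts, levels and scalings, and, added after the data were seen, other Scrublet settings, splits by contractile genes and lists without genes of mural cells.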

Additional observations from a re-analysis of the deposited data

How the results depend on the processing

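Of 80 alternatives, 52 left a value within the interval of the main one or a count within 1.5 times, and 28 did not. With at least 3 pericyte markers, the median depth was 11602.5 UMIs, the endothelial content 85.4% and the mural content 34.9%. With at least 5 they were 12644 UMIs, 77.7% and 38.1%. Without Scrublet calls they were 11313 UMIs, 76.6% and 47.4%, and with endothelial genes at 1% of UMIs or more the mural content was 44.5%. In these settings the reference classes were cut again too, so the contents are not percents of the same levels throughout. Against the main reference, the median mural content was 20.6% in droplets with exactly 4 pericyte markers, 29.5% with 5 and 49.8% with 6. For all combined droplets it was 33.3% without the 3 most abundant genes and 33.0% against mural droplets low in contractile genes. Xist and Y-linked UMIs met in 16.6% of droplets without thinning and 4.21% at 4000 UMIs. Scrublet called 0 combined droplets with an expected share of 5%, an alternative added after the data were seen. Genes outside both classes numbered 15 from 20 CPM and 5 with a 2-fold step, against 9. From 50 CPM, 7 contractile genes were higher than in endothelial droplets, against 11, since fewer were tested. Scaled to the 8 endothelial genes of the rule, the arterial, capillary and venous levels were 71.1, 350.4 and 95.2 (41.4, 306 and 88.6 in endothelial droplets). Without genes higher in mural droplets the arterial and venous levels were 39.1 and 107. The summed arterial level thus went from above to below that of endothelial droplets. Over all genes the arterial, capillary and venous levels were 223, 310.4 and 111 in contractile droplets and 83.5 and 444 (arterial and capillary) in the others. The cause of these shifts was not tested.

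No paired analysis was possible because each group was 1 library, and for the same reason no replicate was left out. The 226 mural droplets, with 1151488 UMIs, limit the reference: 3 UMIs there are 2.61 CPM. All reference classes were cut with the genes of the rule.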
